A study of Homo sapiens with 4 samples.

Results

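The expression of 10 well-known p53 target genes (*CDKN1A*, *MDM2*, *SESN1*, *SESN2*, *ZMAT3*, *RRM2B*, *FAS*, *TNFRSF10B*, *PHLDA3* and *GDF15*) was examined in MCF12A cells with and without an edited *C1orf132* promoter. None of the 10 passed the test for a difference between edited and wild-type cells. Of all 9590 tested genes 7.09% passed, so 10 genes without a call are near that share. *CDKN1A*, the p21 gene, and *ZMAT3* were lower in both edited libraries than in both wild-type libraries, by 0.81 and 0.61 on the log2 scale, with adjusted p of 0.145 and 0.109. *TNFRSF10B* and *PHLDA3* were also lower without overlap, and *FAS* was higher. Over all tested genes 26.9% were lower and 38.3% higher in edited cells without overlap. *MDM2*, the other classical readout of p53, overlapped between the groups. The genes were taken by name as established p53 targets, with earlier results of these data known, and all 10 were among the 16811 genes of the table.

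MCF12A cells come from human mammary epithelium and do not form tumours, although the labels give their source as a breast cancer line. *C1orf132* is a long non-coding RNA gene that hosts miR-29 precursors. In the edited group, labelled *C1orf132* KO, Cas9 and a pair of guide RNAs had been used to remove the p2 promoter of that gene, and single GFP-positive cells had been sorted and grown into colonies. The wild-type group was unedited MCF12A. Each group had 2 libraries, which the study describes as biological replicates, of poly(A) RNA. Neither group is labelled as given a drug or a DNA-damaging agent, and the labels give the same culture medium for both. Which colony was sequenced is not given in the sources used here, so the deletion cannot be told apart from other features of a clone, and the level of *C1orf132* itself was not analysed here. The study reported more edited cells in G2/M by flow cytometry, and the comparison asks whether the transcriptional output of p53 differed as well.

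p53 is a transcription factor that MDM2 and MDM4 hold at a low level in unstressed cells. When DNA is damaged or growth signals are disturbed, it is stabilised, binds its response elements and raises genes for cell-cycle arrest, DNA repair, metabolic restraint and cell death. p21, the product of *CDKN1A*, inhibits cyclin-dependent kinases and so favours the DREAM complex, which represses genes of the cell cycle. MDM2 is both a target of p53 and the ligase that marks it for degradation, and some p53 targets keep a basal p53-dependent level without added damage.

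The values are normalised signals that were taken as scaled for transcript length, and on that basis levels are set beside each other between genes. They summed to between 1444640 and 1655440 per library. Over the 12297 genes with a matched length they corresponded to about 31500000 to 41900000 reads, as estimated from the smallest values of genes with a single transcript. In these terms the members were well covered: apart from *FAS*, for which no length was matched, *GDF15* had the fewest, about 218 reads in edited replicate 1, and *MDM2* had about 15120 to 25459. Differences are given as log2 fold changes of edited minus wild-type cells on the log2(value + 1) scale, with 95% intervals from limma, and a call means an adjusted p under 0.05 over the 9590 genes whose mean was at least 10. With 2 libraries a group, an exact permutation test of 1 gene cannot go below a two-sided p of 0.333. Since these are bulk samples, fewer cells that use a gene and less RNA per cell cannot be told apart.

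The response elements of p53 pair 10-base half-sites, and most well-studied ones lie outside the nearest promoter. The RefSeq windows (GRCh38.p14) ran from 250 bases before to 50 after the start used for each gene. That start can lie inside the full span of the gene, as it did for the members *CDKN1A*, *ZMAT3* and *FAS* and for some other targets such as *AEN*. An entry existed for 7 of the 10 genes (all but *RRM2B*, *TNFRSF10B* and *PHLDA3*). Of these, 0 of the 7 held a match to the p53 half-site consensus. The motif is its own reverse complement, so a match counts for both strands. Only exact matches to all 10 bases were counted, so sites with a mismatch were not looked for. Among 52 other genes that p53 activates, 41 had an entry and 4 of those held a match (9.76%), against 6.63% of all 35116 windows. These are shown because they are the only exact half-site matches found in the windows of either list. The lines give 30 bases with the half-site in capitals, read 5′ to 3′ on the strand of the gene, for *PLK2* (a polo-like kinase, chr5:58460199-58460228, minus strand), *AEN* (a nuclease of apoptosis, chr15:88621296-88621325, plus strand), *RPS27L* (a ribosomal protein paralogue, chr15:63157517-63157546, minus strand) and *FDXR* (ferredoxin reductase, chr17:74872986-74873015, minus strand).
PLK2: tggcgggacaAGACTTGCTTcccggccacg
AEN: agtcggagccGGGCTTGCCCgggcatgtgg
RPS27L: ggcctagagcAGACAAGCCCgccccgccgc
FDXR: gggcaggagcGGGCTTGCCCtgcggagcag

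The half-sites begin 132, 34, 59 and 11 bases upstream of the start used for *PLK2*, *AEN*, *RPS27L* and *FDXR*. None of these 4 genes, named for the match, passed the test. Their log2 fold changes were 0.30 for *PLK2* (adjusted p = 0.657), 1.20 for *AEN* (adjusted p = 0.0610), 1.08 for *RPS27L* (adjusted p = 0.0881) and -0.08 for *FDXR* (adjusted p = 0.881). No window of either list held a full site of 2 exact half-sites up to 13 bases apart, and such a site was found in 0.0285% of all windows.

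The main inhibitors of p53, *MDM2* and *MDM4*, did not pass the test. *MDM2* (chr12:68808172-68850686) had values of 288 and 307 in edited cells and 313 and 204 in wild-type cells. The edited libraries lay between the wild-type ones, and the log2 fold change was 0.23 with an interval from -0.43 to 0.89 (adjusted p = 0.576). The upper bound corresponds to a 1.86-fold higher level, so a change of that size in *MDM2* lies within the error, and its direction turned without wild-type replicate 2 (-0.073) and under cyclic loess scaling (-0.075). *MDM4*, the partner that masks the activation domain of p53, had values of 21.2 and 17.9 in edited and 18.2 and 15.7 in wild-type cells (log2 fold change 0.20, SE 0.20, adjusted p = 0.521).

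*CDKN1A* (chr6:36676463-36687332) was among the lower members. Its values were 170.1 and 121 in the edited libraries against 198 and 320.4 in the wild-type pair. Both edited libraries were lower than both wild-type ones, but the step from the higher edited to the lower wild-type library was smaller than that between the wild-type libraries. The log2 fold change was -0.81 with an SE of 0.31 and an interval from -1.59 to -0.03 (limma, adjusted p = 0.145). Leaving out 1 library at a time gave values between -1.15 and -0.47, and the lowest of these was without wild-type replicate 1. The kinases and cyclins that p21 acts on did not pass the test: the log2 fold changes were -0.16 for *CDK2* (adjusted p = 0.562), 0.63 for *CCNE1* (adjusted p = 0.154) and 1.28 for *CCND1* (adjusted p = 0.0605). *PCNA*, the replication clamp that p21 also binds, had a log2 fold change of 0.21 (adjusted p = 0.630).

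**Figure D1:**
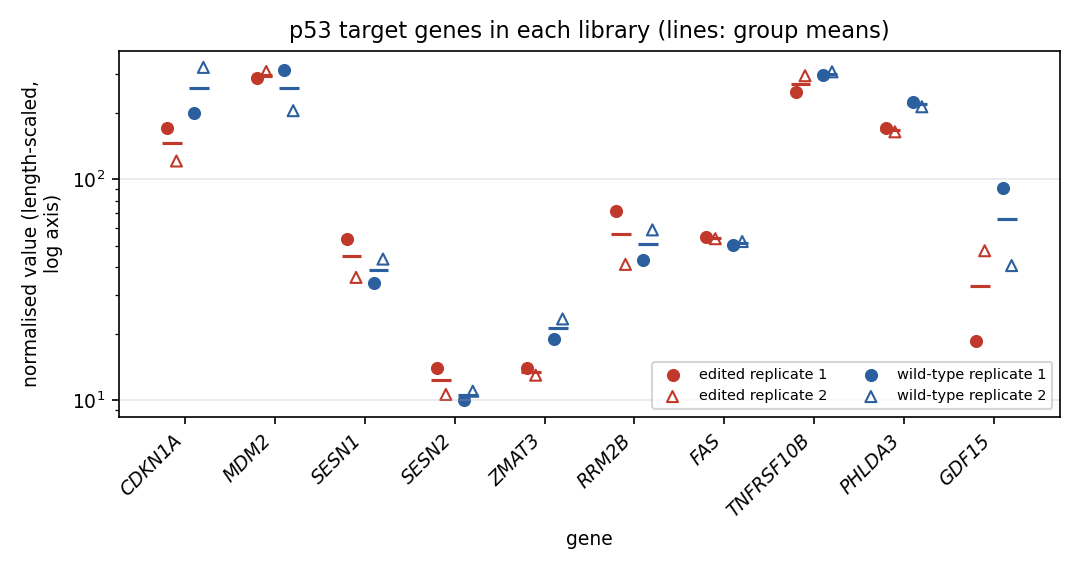
Normalised, length-scaled value of each of the 10 p53 target genes in each library, on a log axis. Red marks are edited and blue marks wild-type libraries, circles replicate 1 and triangles replicate 2, and short lines are group means. *CDKN1A*, *ZMAT3*, *TNFRSF10B* and *PHLDA3* are lower and *FAS* is higher in both edited libraries, while *GDF15* differs at least 2.25-fold within each group. Over all tested genes 26.9% are lower and 38.3% higher in edited cells without overlap.

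*ZMAT3* (chr3:179017223-179072513) encodes a zinc finger protein that binds RNA and acts in the tumour-suppressor response to p53. It had values of 13.9 and 12.96 in edited cells and 18.9 and 23.3 in wild-type cells, with no overlap. Its log2 fold change was -0.61 with an SE of 0.20 and an interval from -1.11 to -0.10 (adjusted p = 0.109), the smallest adjusted p among the 10 genes. The interval excludes 0 before the adjustment over all genes, as it does for *CDKN1A* and for no other member.

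*PHLDA3* (chr1:201464278-201469188) encodes a pleckstrin-homology protein that keeps AKT from the membrane. Its values were 170.2 and 164 in the edited libraries against 224 and 213 in the wild-type libraries. The replicates were close and the groups did not overlap, yet the log2 fold change of -0.38 (interval from -0.85 to 0.09) did not pass the test (adjusted p = 0.218). *AKT1*, the kinase that it restrains, had a log2 fold change of -0.05 (adjusted p = 0.876).

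The sestrins and the p53-inducible subunit of ribonucleotide reductase, which serve metabolism and DNA repair, overlapped between the groups. *SESN1* (chr6:108984309-109094846) and *SESN2* (chr1:28259518-28282491) encode stress proteins that bind the GATOR2 complex and restrain mTORC1. *SESN1* had values of 53.5 and 35.9 in edited and 34.0 and 43.5 in wild-type cells, with a log2 fold change of 0.18 (interval from -0.45 to 0.82, adjusted p = 0.647). *SESN2* had values of 14.0 and 10.6 in edited and 10.0 and 11.0 in wild-type cells, with a log2 fold change of 0.20 (interval from -0.41 to 0.80, adjusted p = 0.607). In each of these genes edited replicate 1 was the highest of the 4 libraries. Of the GATOR2 subunits, *SEC13*, which is also part of the COPII coat and the nuclear pore, rose from 60.0 and 44.8 in wild-type to 133 and 110.5 in edited cells (log2 fold change 1.21, SE 0.23, adjusted p = 0.0420). That call was lost without wild-type replicate 1 or 2 (adjusted p = 0.0904 and 0.216) or edited replicate 1 (0.0906). *SEH1L* (0.75, adjusted p = 0.0689), *MIOS* (-0.19, adjusted p = 0.482) and *WDR59* (-0.02, adjusted p = 0.963) did not pass on the same log2 scale.

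*RRM2B* (chr8:102204501-102238961) supplies deoxynucleotides for repair outside S phase. It had values of 71.5 and 41.1 in edited cells and 42.9 and 58.9 in wild-type cells. The edited libraries were both the highest and the lowest of the 4, and the log2 fold change was 0.11 with an interval from -0.68 to 0.89 (adjusted p = 0.841). The other subunits of the enzyme did not pass either, with log2 fold changes of -0.26 for *RRM1* (adjusted p = 0.382) and 0.58 for *RRM2*, the S-phase subunit (adjusted p = 0.155). The direction of *SESN1* turned without edited replicate 1 (-0.096), and that of *RRM2B* without edited replicate 1 (-0.28), without wild-type replicate 1 (-0.12) and under equal library totals or cyclic loess scaling.

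The death receptors *FAS* and *TNFRSF10B* showed small differences between the groups. *FAS* (chr10:88964050-89017059), the receptor of FAS ligand, had values of 54.9 and 53.7 in edited and 50.3 and 52.2 in wild-type cells. Both edited libraries were higher by a small margin, and the log2 fold change of 0.08 (interval from -0.33 to 0.49, adjusted p = 0.761) lay close to the median of all tested genes, 0.09; it was -0.035 when library totals were set equal and -0.030 under cyclic loess scaling. *TNFRSF10B* (chr8:23020133-23069031), which encodes the TRAIL receptor DR5, had values of 247 and 294 in edited and 295 and 306 in wild-type cells. The edited libraries were both lower, the nearest pair of libraries nearly touched, and the log2 fold change was -0.16 (interval from -0.67 to 0.35, adjusted p = 0.627).

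The ligand of DR5 passed the test, unlike the receptor. *TNFSF10*, the gene of TRAIL and itself a reported p53 target, had values of 1.23 and 6.78 in edited cells against 208 and 142 in wild-type cells, a 43.8-fold higher mean in wild-type cells. It fell by 5.38 on the log2 scale (SE 0.58, adjusted p = 0.0132). The values rest on about 23 and 141 reads in edited cells, against 3365 and 2644 in wild-type cells. *CASP10*, an initiator caspase of the same receptor complex, fell from 11.8 and 13.9 in wild-type to 1.51 and 1.6 in edited cells, with a log2 fold change of -2.44 (SE 0.22, adjusted p = 0.0158 among all 16811 genes, since its mean was under 10). The remaining parts of the complex did not pass: the log2 fold changes were 0.30 for *CASP8*, the initiator caspase (adjusted p = 0.251), 0.52 for *FADD*, the adaptor (adjusted p = 0.139), and -0.33 for *CFLAR*, the inhibitor FLIP (adjusted p = 0.448). The other TRAIL receptors, named here after their values were seen, did not pass either, with 0.20 for *TNFRSF10A* (adjusted p = 0.484) and -0.36 and -0.18 for the decoys *TNFRSF10C* (adjusted p = 0.618) and *TNFRSF10D* (adjusted p = 0.530). Of 23 listed partners and relatives of the members, 21 were in the table and 3 passed: *SEC13* rose, and *TNFSF10* and *CASP10* fell. Of the 18 with a mean of at least 10, 11.1% passed, against 7.09% of all tested genes. *CASP10*, with its lower mean, passed among all 16811 genes, of which 4.73% did. Without wild-type replicate 1 or 2 the adjusted p was 0.0779 and 0.101 for *TNFSF10* and 0.120 and 0.182 for *CASP10*, which also missed the threshold without edited replicate 1 (0.0787).

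**Figure D2:**
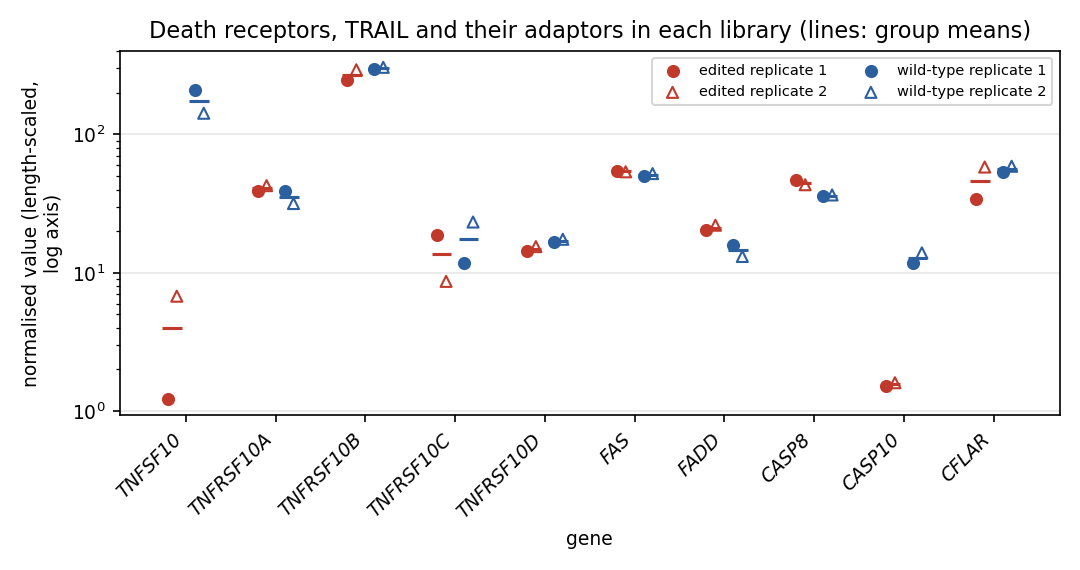
Normalised, length-scaled value of TRAIL (*TNFSF10*), its receptors, *FAS* and the parts of their signalling complex in each library, on a log axis. Red marks are edited and blue marks wild-type libraries, circles replicate 1 and triangles replicate 2, and short lines are group means; *TNFSF10* and *CASP10* lie far lower in both edited libraries, while the receptors *TNFRSF10B* and *FAS* lie at similar levels in all 4.

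*GDF15* (chr19:18386158-18389176), a secreted stress cytokine, was the least certain member. Its values were 18.5 and 47.4 in edited cells and 91.4 and 40.6 in wild-type cells. The groups overlapped, and the replicates differed 2.56-fold in edited and 2.25-fold in wild-type cells. Its log2 fold change was -1.01 with an SE of 0.54 and an interval from -2.37 to 0.34 (adjusted p = 0.251). Without edited replicate 2 the log2 fold change was -1.67 and the adjusted p 0.0408, in a fit whose lone edited library is assumed to vary like the wild-type ones and in which the calls over all genes went from 680 to 1431. The log2 fold change was -1.59 without wild-type replicate 2, and came to -0.36 without edited replicate 1 and -0.44 without wild-type replicate 1.

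The members were thus 5 higher and 5 lower in edited cells, and 0 of the 10 passed at an adjusted p under 0.05 or under 0.001. By limma 2 of the 10 had an unadjusted p under 0.05, both lower in edited cells, against 3095 of 9590 genes (32.3%). Over all tested genes, 7.09% were called, 2.89% as higher and 4.20% as lower in edited cells, so 10 genes at that share would hold fewer than 1 call. The median log2 fold change of the 10 was -0.04, against 0.09 over all tested genes, and under cyclic loess scaling these medians were -0.27 and -0.0069. The groups did not overlap in 1 member that was higher and 4 that were lower, while over all tested genes 38.3% were higher and 26.9% lower without overlap. The adjusted p of the members ranged from 0.109 to 0.841. Their intervals were wide: the upper bounds reached 1.86-fold higher in *MDM2* and 1.85-fold higher in *RRM2B*, and the lower bounds reached 0.332 of the wild-type level in *CDKN1A* and 0.194 in *GDF15*.

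**Figure D3:**
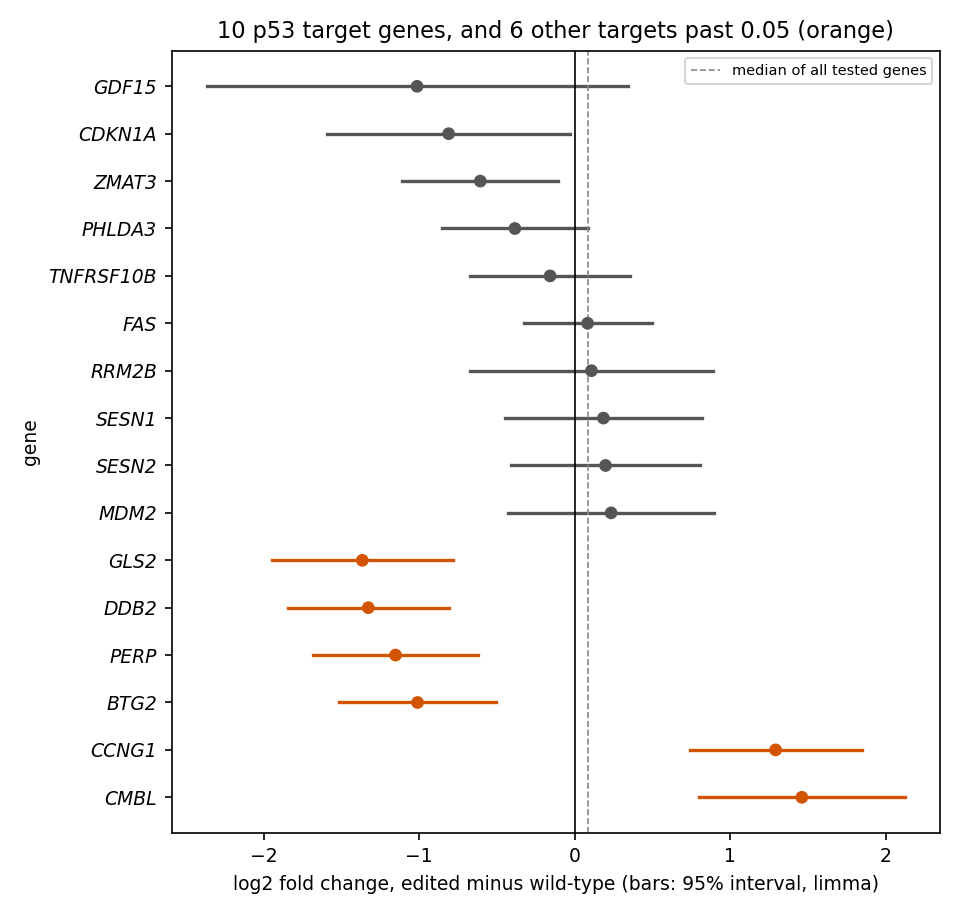
Log2 fold change of edited minus wild-type cells for the 10 p53 target genes and, in orange, the 6 other p53 targets with an adjusted p under 0.05; bars are 95% intervals from limma and the dashed line is the median of all tested genes. The members lie between -1.01 and 0.23, and only the bars of *CDKN1A* and *ZMAT3* among them stay off 0.

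By level, the same 4 members stood above the other 6 in both groups. In edited cells the mean values ran from *MDM2* (297) over *TNFRSF10B* (270.2), *PHLDA3* (167), *CDKN1A* (145), *RRM2B* (56.3), *FAS* (54.3), *SESN1* (44.7), *GDF15* (32.9) and *ZMAT3* (13.4) to *SESN2* (12.3). Neighbours whose libraries overlapped were *MDM2* and *TNFRSF10B*, *PHLDA3* and *CDKN1A*, *RRM2B* and *FAS*, *SESN1* and *GDF15*, and *ZMAT3* and *SESN2*. In wild-type cells the highest means were those of *TNFRSF10B* (301), *CDKN1A* (259), *MDM2* (258) and *PHLDA3* (218), which overlapped from one to the next. The largest step in the wild-type order was from *PHLDA3* to *GDF15* (66.0), with *FAS* (51.2), *RRM2B* (50.9), *SESN1* (38.7), *ZMAT3* (21.1) and *SESN2* (10.5) below it.

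The wider list of genes that p53 is known to activate held calls in both directions. All 52 on the list were in the table, 44 of them with a mean of at least 10, and 5 of those 44 passed (11.4%, against 7.09% of all tested genes). A further gene with a lower mean passed among all 16811 genes, of which 4.73% did. Of all 52, which include 8 with a mean under 10, 34 were lower and 18 higher in edited cells. Their median was -0.35 on the log2 scale, and by limma 24 had an unadjusted p under 0.05, 18 of them lower. Over all tested genes 56.7% were higher in edited cells, the median was 0.09 and 32.3% had an unadjusted p under 0.05. The tested genes leave out those with a mean under 10. With these included, the median over all 16811 genes was 0.01, and by limma 4909 had an unadjusted p under 0.05.

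The 4 targets of this list that fell act in repair, metabolism, adhesion and growth control. *TNFSF10* and *ATF3*, which p53 is also reported to activate, fell too but were on other lists and are not counted here. *DDIT4*, likewise on another list, did not pass. *DDB2*, which recognises ultraviolet damage in nucleotide excision repair, had values of 104 and 93.8 in edited and 225 and 275 in wild-type cells, and fell by 1.33 on the log2 scale (SE 0.21, adjusted p = 0.0298). *PERP*, a membrane protein of desmosomes, fell by 1.15 from 343 and 371 to 144 and 178 (SE 0.21, adjusted p = 0.0416). *BTG2*, an antiproliferative factor that promotes mRNA deadenylation, fell by 1.01 from 58.0 and 70.9 to 34.8 and 28.2 (SE 0.20, adjusted p = 0.0470). In these 3 genes both edited libraries were well below both wild-type libraries. *GLS2*, a mitochondrial glutaminase, was near the floor of the data with 1.38 and 1.25 in edited and 4.76 and 5.16 in wild-type cells, about 32 to 33 reads against 98 to 122, and fell by 1.37 (SE 0.23, adjusted p = 0.0441). None of the 4 passed when either wild-type library was left out (adjusted p between 0.0848 and 0.236), of the 4 only *DDB2* passed without edited replicate 1, and *BTG2* and *GLS2* did not pass without edited replicate 2; each kept its direction.

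The 2 targets that rose were *CCNG1* and *CMBL*. *CCNG1* encodes cyclin G1, a p53 target that acts with a phosphatase on MDM2, and had values of 572 and 524 in edited against 252 and 197 in wild-type cells. It rose by 1.29 on the log2 scale (SE 0.22, adjusted p = 0.0371), more than 2-fold and with no overlap. *CMBL*, a hydrolase, rose by 1.46 from 19.2 and 18.5 to 68.9 and 41.6 (SE 0.27, adjusted p = 0.0403). The targets of the highest mean that did not pass differed in direction, with -0.60 for *SFN*, the 14-3-3 sigma gene of G2 arrest and epithelial cells (342 and 274 in edited, 364 and 597 in wild-type cells, adjusted p = 0.225) and 1.08 for *RPS27L* (607 and 337 in edited, 215 and 213 in wild-type cells, adjusted p = 0.0881). Neither call held when a wild-type library was left out, with adjusted p of 0.0848 and 0.191 for *CCNG1* and 0.113 and 0.210 for *CMBL* without wild-type replicate 1 and 2, or without edited replicate 1 (0.0802 and 0.0561).

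**Figure D4:**
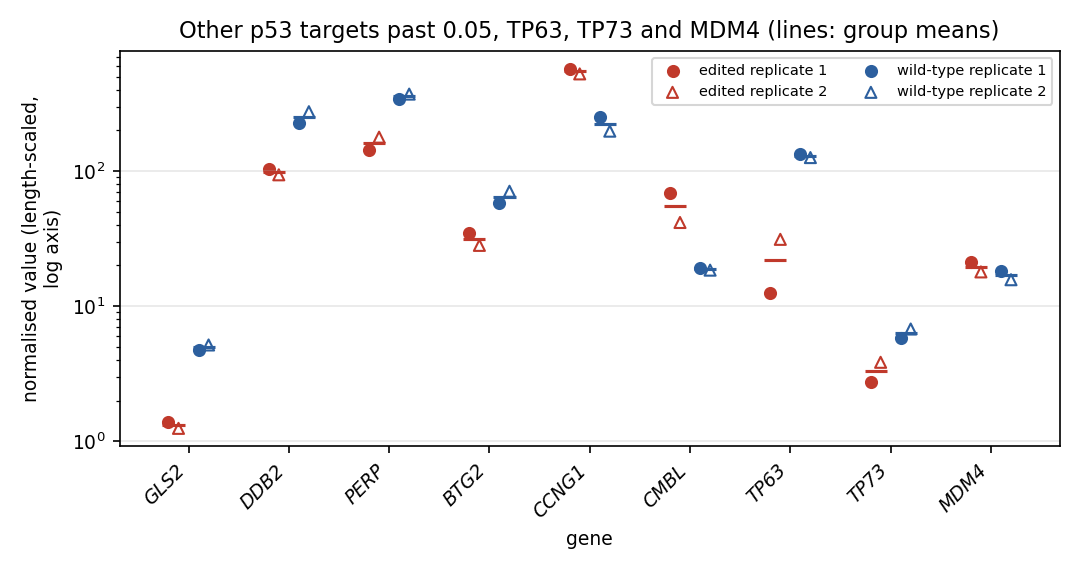
Normalised, length-scaled value in each library, on a log axis, of the 6 other p53 targets with an adjusted p under 0.05 and of *TP63*, *TP73* and *MDM4*. Red marks are edited and blue marks wild-type libraries, circles replicate 1 and triangles replicate 2, and short lines are group means; *CCNG1* and *CMBL* are higher and the other 4 targets and *TP63* lower in both edited libraries, while the values of *MDM4* lie close together.

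Among 22 listed members of the p53 family and its regulators, 21 were in the table and 1 passed, which is 5.26% of the 19 with a mean of at least 10 and near the 7.09% of all tested genes. *TP63*, the p53 relative that marks basal epithelium and binds many of the same elements, had values of 12.6 and 31.2 in edited and 134 and 126 in wild-type cells. It fell by 2.65 on the log2 scale (SE 0.41, adjusted p = 0.0284), and the adjusted p was 0.1003 and 0.175 without wild-type replicate 1 and 2. The regulators of the highest mean did not pass: *RPL11*, a ribosomal protein that inhibits MDM2, had a log2 fold change of -0.08 (adjusted p = 0.804), and *NPM1*, a nucleolar protein that binds ARF and MDM2, one of 1.01 (adjusted p = 0.0922). The list had a median of 0.16.

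The cell-cycle genes that p53 represses through p21 and DREAM showed no call. All 30 on the list had a mean of at least 10, 24 were higher and 6 lower in edited cells, and the median was 0.16 on the log2 scale, against 0.09 over all tested genes, of which 56.7% were higher. By limma 0 of the 30 passed, the smallest adjusted p was 0.123, and 2 had an unadjusted p under 0.05, both higher, a smaller share than the 32.3% of all tested genes. The genes of the highest mean were *PRC1*, a spindle midzone protein (0.16 on the log2 scale, adjusted p = 0.639), and *CCNB1*, the cyclin of mitotic entry. *CCNB1* had values of 685 and 437 in edited and 389 and 215 in wild-type cells, higher in both edited libraries, with a log2 fold change of 0.92 and an interval from -0.01 to 1.84 (adjusted p = 0.159). Under cyclic loess scaling the median of the list was -0.018, beside -0.0069 over all tested genes, so its direction depended on how the libraries were scaled.

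**Figure D5:**
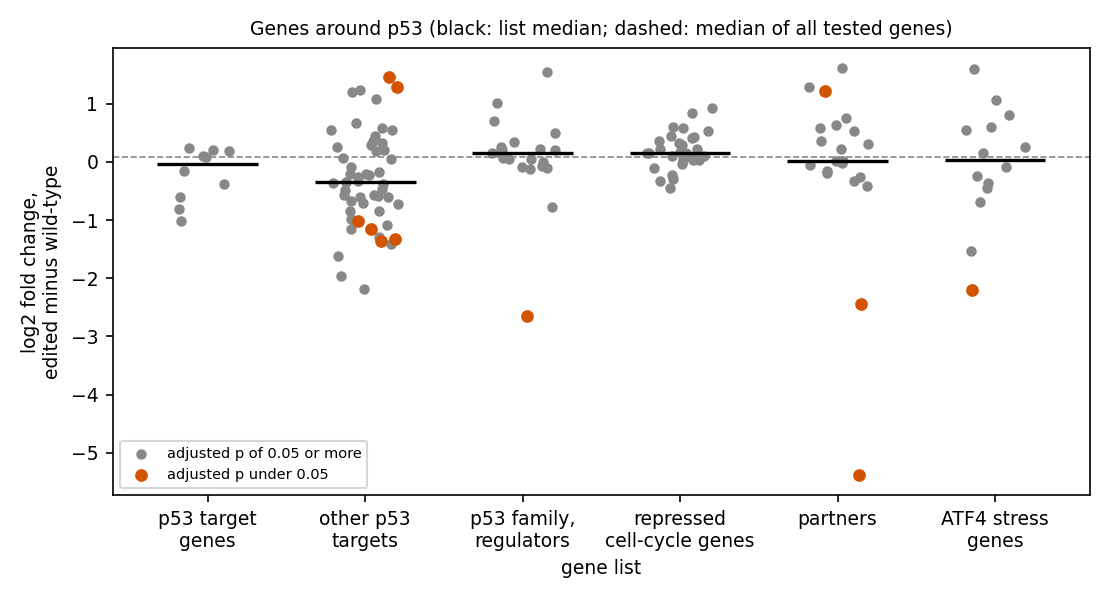
Log2 fold change of edited minus wild-type cells for each gene of 6 lists around p53; orange points have an adjusted p under 0.05, black lines are list medians and the dashed line is the median of all tested genes. The 10 members hold no orange point and have a median of -0.04, the other p53 targets have a median of -0.35, and the repressed cell-cycle genes have a median of 0.16.

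Several markers of the epithelial state differed between the groups. The 9 epithelial markers had a median log2 fold change of -2.31. Their summed level was 5180 and 6959 in edited against 12311 and 20816 in wild-type libraries. *KRT5* alone gave 3514 and 3056 of these in edited and 4590 and 11914 in wild-type libraries. Not past the test were *KRT5* (-1.17, adjusted p = 0.146), *KRT14* (-3.08, adjusted p = 0.0512), *ITGB4* (-0.64, adjusted p = 0.580) and *KRT18* (0.89, adjusted p = 0.305). The groups overlapped in *ITGB4* and *KRT18*. The other 5 passed (55.6%, against 7.09% of all tested genes): *KRT17*, *EPCAM*, *CDH1* and *TP63* fell and *KRT8* rose. Of these 5 and *COL1A1* below, only *CDH1* passed without wild-type replicate 1 (adjusted p = 0.0497) and none without wild-type replicate 2; without edited replicate 1 *KRT17*, *KRT8* and *COL1A1* missed the threshold, and without edited replicate 2 *KRT8* did. Several p53 targets on the wider list, such as *PERP* and *SFN*, are also genes of epithelial identity. Whether the differences in the epithelial markers, which went in both directions, have a part in the values of *PERP*, *SFN*, *TNFSF10* or *CDKN1A* was not tested. Of 15 markers of fibroblasts, endothelium and leukocytes, 3 were in the table. *COL1A1*, a collagen gene, fell by 2.06 on the log2 scale (adjusted p = 0.0420), *DCN*, the proteoglycan decorin, had values of 15.1 and 105 in edited and 7.42 and 1.09 in wild-type cells, higher in both edited libraries (log2 fold change 3.30, adjusted p = 0.0974), and *CD68* had a log2 fold change of 0.052 (adjusted p = 0.898). The 3 had a summed level of 51.0 and 160 in edited and 62.8 and 66.7 in wild-type libraries, and the other 12 were not analysed here.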

How the data were processed

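Poly(A) RNA of 2 edited and 2 wild-type MCF12A libraries was sequenced as single 75-base reads; the groups and replicate numbers came from the sample titles. The authors deposited 1 table of 16811 genes by symbol with a normalised signal per library. The submitters' processing notes name HISAT2, Salmon and hg38; how the values were scaled between libraries is not given in the sources used here. The values of genes with a single transcript fell near multiples of a step set by transcript length (69.8% to 83.3% of low values within 0.2 of a whole multiple). The step was the median of value times length in kb between 0.06 and 0.16. The same low values were then scored against it, which raises these shares. The values were taken as scaled for length and not as counts, and count tests were not used. Depth was estimated from the same step (0.0903 to 0.116 for 1 read on 1 kb), with canonical transcript lengths from GENCODE, so read numbers are approximate. A length was matched for 12297 of the 16811 genes, so the totals leave out the reads of the rest. The reads carry no molecular identifiers and cannot be taken as independent molecules.

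The analysis plan set limma for a normalised signal and a count test only for raw counts. The values were not counts, so the planned test for normalised values was used. The 9590 genes with a mean of at least 10 were fitted with limma 3.58.1 in R 4.3.3 by lmFit and trended eBayes on log2(value + 1), leaving the replicate number out of the model, and p-values were adjusted by Benjamini-Hochberg. Genes under that mean were tested in the same fit over all 16811 genes. The fit was also run on simulated data, whose outcome is not reported here, so no statement about its power rests on that run. Alternatives were the filter, the pseudocount, the scaling, the variance trend, the threshold, each library left out and a replicate block.

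The members and gene lists were chosen with earlier results of these data known. Named genes were all members, *MDM4* (another regulator that the rule names is not reported here), and in each other list up to 6 genes past 0.05 by size and up to 2 of the highest mean not past it, with partners beside a member. Promoter windows and positions are RefSeq on GRCh38.p14. *CDKN2A*, *FASLG*, *PHLDA2* and *CHAC1* were not analysed here, and *COP1* was matched by its older symbol *RFWD2*.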

Additional observations from a re-analysis of the deposited data

How the results depend on the processing

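The members called numbered 0 under every scaling, pseudocount and filter tried, and 1 (*GDF15*) under the crossed pairing and without edited replicate 2 (adjusted p = 0.0289 and 0.0408); with 1 library left out they ranged from 0 to 1. Of 140 comparisons of a member with an alternative, 129 kept the direction and the side of the threshold. Direction turned under equal library totals in *RRM2B* (-0.010) and *FAS* (-0.035), and under cyclic loess in *RRM2B* (-0.0047), *FAS* (-0.030) and *MDM2* (-0.075); equal totals moved the median of all tested genes from 0.09 to -0.03. With 1 library left out the log2 fold changes ranged from -0.10 to 0.47 in *SESN1*, -0.28 to 0.50 in *RRM2B* and -0.073 to 0.54 in *MDM2*. The median of the members was -0.27 under cyclic loess. Of all genes, 680 were called; 419 were with a mean of at least 50, 1 at a threshold of 0.001, and between 4 (without wild-type replicate 2) and 1431 (without edited replicate 2) with 1 library left out. The 6 calls among other targets became 0 at 0.001 and ranged from 0 to 10 with 1 library left out.

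The labels do not say whether equal replicate numbers share a culture or a day. The deviations of same-numbered libraries had a correlation of -0.14, which so few libraries cannot turn into an answer. With the replicate block 133 genes, 0 members and 0 other targets were called, against 1002, 1 and 10 with the crossed pairing, which was chosen after seeing the data. Of the 16 genes called by name, markers included, between 11 and 16 passed under the other filters, pseudocounts, scalings and variance model, and 3 (*ATF3*, *EPCAM* and *CDH1*) with the replicate block. The causes of these shifts were not tested. The members other than *FAS*, whose reads were not estimated, rested on about 218 reads or more in each library.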

Other observations

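*GDF15*, *SESN2* and *TNFRSF10B* are also known to respond to ATF4 and the integrated stress response, so the genes of that pathway were examined beside them. Of 15 listed genes, 14 were in the table and 1 passed, which is 9.09% of the 11 with a mean of at least 10, near the 7.09% of all tested genes. *ATF3*, an early stress transcription factor that p53 also activates, had values of 5.32 and 5.48 in edited and 26.1 and 31.3 in wild-type cells, and fell by 2.21 on the log2 scale (SE 0.22, adjusted p = 0.0103), with an adjusted p of 0.0647 and 0.104 without wild-type replicate 1 and 2. *ATF4* itself had values of 236 and 284 in edited and 224 and 131 in wild-type cells (difference of 0.59 on the log2 scale, adjusted p = 0.238). *DDIT4*, an inhibitor of mTORC1 that p53 and ATF4 both induce, varied more within the groups than between them, with 853 and 410.5 in edited and 421 and 932 in wild-type cells (-0.08 on the log2 scale, adjusted p = 0.924). In the median this list was close to the rest of the genes, at 0.04.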
